A study of Homo sapiens with 12 samples.

Results

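The nuclear genes for the subunits of the oxidative phosphorylation (OXPHOS) complexes were examined in CAMA-1, an established ER-positive (oestrogen receptor-expressing) line of breast cancer cells. Members were chosen by gene symbol: NDUFA, NDUFB, NDUFC, NDUFS and NDUFV genes with a number, the SDH genes, UQCR genes, CYC1, COX genes numbered from 4 to 8, and ATP5 genes, without pseudogenes or antisense genes. This gave 88 of the 60612 named genes, of which 36 belong to complex I, 4 to complex II, 10 to complex III, 18 to complex IV (NDUFA4 counted here) and 20 to complex V. Wild-type cells were given DMSO as vehicle, 100 nM abemaciclib, which inhibits CDK4/6, 5 nM fulvestrant, which degrades the ER, or the combination, for which the labels do not restate the doses. Each group held 3 replicate libraries of 3′ RNA-seq, 12 in all, from 1 experiment. Libraries of this kind read the 3′ end of each transcript, so counts do not grow with transcript length. Levels are given as normalised counts scaled to library size (CPM). Levels of different genes can be compared only roughly, since reads at a 3′ end that overlaps another gene may go uncounted.

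OXPHOS passes electrons from NADH (complex I) and succinate (complex II) through ubiquinone to complex III, then by cytochrome c to complex IV, where oxygen is reduced. Complexes I, III and IV pump protons across the inner mitochondrial membrane, and complex V, the ATP synthase, lets them return to make ATP. A few catalytic subunits are encoded by the mitochondrial genome and all others, including the whole of complex II, by nuclear genes, so that the complexes of a cell are built from transcripts of both genomes.

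The libraries held 3299119 to 5164667 counts. Luminal epithelial markers summed to between 6343 and 8383 CPM in every library, with none of the 8 genes at 0. Leukocyte markers reached at most 0.480 CPM, endothelial markers 0.844 CPM, basal markers 2.05 CPM and fibroblast markers 36.8 CPM, 3 of the 5 fibroblast genes being at 0 in every library. Fulvestrant replicate 3 stood apart for the OXPHOS genes, 11 tested members deviating by more than 0.3 on the log2 scale from their group mean, against 4 in DMSO replicate 1 and 0 to 3 in each other library. The mean absolute deviation was 0.153 in fulvestrant replicate 3, 0.114 in fulvestrant replicate 2, 0.102 in DMSO replicate 1 and at most 0.084 in the others. Counts that rest on single libraries are given with and without them. Counts were scaled to a library total, so less RNA per cell and fewer cells cannot be told apart.

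Of the 88 members, 80 passed the filter on low counts: 35 of complex I, all of complexes II and III, 12 of complex IV and 19 of complex V. The genes that did not pass were mostly forms known from other tissues. COX4I2, COX6A2, COX7A1, COX7B2 and the readthrough gene ATP5MF-PTCD1 had 0 counts in every library, and COX6B2 and COX8C had 1 count in all. NDUFV2, a core subunit that holds an iron-sulfur cluster, had 0 to 6 counts per library, and 90.2% of the last 500 bases of its transcript lie under exons of another gene on the same strand. Such reads may go uncounted, so the level of NDUFV2 was not measured here. The same overlap was 83.6% for NDUFA13, 74.4% for NDUFA7, 64% for NDUFA11 and 62% for NDUFB8, and values of these genes are uncertain.

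Tested members were abundant, with a median of 203 CPM over all libraries against 24.3 CPM for all 11803 genes tested. The highest in each complex were NDUFB9 of the membrane arm of complex I (563 CPM), SDHC, a membrane anchor of complex II (231 CPM), UQCRB of complex III (953 CPM), COX6C of complex IV (888 CPM) and ATP5F1B, the catalytic beta subunit of complex V (741 CPM). Together members took 2.19% ± 0.0184 (SD, n = 3) of the counts of DMSO libraries, 2.12% ± 0.0120 with abemaciclib, 2.02% ± 0.0714 with fulvestrant and 2.06% ± 0.0748 with both drugs. The share was lower than in every DMSO library in all 9 drug-treated libraries, in which rows of the mitochondrial genome took more of the counts. Of the counts outside those rows, members took 2.50% ± 0.0151, 2.59% ± 0.0214, 2.48% ± 0.0918 and 2.49% ± 0.0439 in DMSO, abemaciclib, fulvestrant and the combination, with every abemaciclib library above every DMSO library and the other groups overlapping DMSO.

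Promoters of the subunit genes are known for sites of a few general factors: NRF1 (nuclear respiratory factor 1), the ETS factor GABP, YY1 and the oestrogen-related receptors. RefSeq promoters (build GRCh38.p14, 250 bases before to 50 after the start) were matched to 65 of the 80 tested members and searched on both strands for CCGGAAG (ETS), CGCATGCG (NRF1), AAGATGGCG (YY1), TCAAGGTCA (oestrogen-related receptor), and TTTCCCGC and TTTGGCGC (both E2F); none of these contains another. The ETS letters stood in 30.8% of members' promoters against 10.3% of all 35116 promoters, the NRF1 letters in 15.4% against 2.02%, and the YY1 letters in 12.3% against 1.75%. Each member gave 1 promoter, while the 35116 were taken whether or not their genes were tested here. The 2 sets were not matched for expression, so these shares do not set members apart from other expressed genes. The oestrogen-related receptor letters were in 1 member promoter (1.54% against 0.353%), and the E2F letters in 3 (4.62% against 1.63%) and 2 (3.08% against 0.652%). Of members lower in the combination than in DMSO, 8 of 29 held the ETS letters, 4 the NRF1 letters and 4 the YY1 letters. Of members higher, 2 of 8 held the ETS letters, 2 the NRF1 letters and 1 the YY1 letters, and of those not called, 10, 4 and 3 of 28. The E2F letters were in 2 and 1 of the 29 lower, in 0 of the 8 higher, and in 1 and 1 of the 28 not called. The promoters below belong to named members on either side of that comparison. On each side the 3 with the most matches were printed, ties going to the larger change. Among those printed, the ETS and YY1 letters stand on both sides, the E2F letters on the lower side and the NRF1 letters on the higher side. Being picked for their matches, they do not show how the letters are spread over the members, for which the counts above stand. Capitals mark the matches, and sequences run 5′ to 3′ on the gene's strand.
SDHB (lower in the combination, chr1:17053983-17054282, minus strand): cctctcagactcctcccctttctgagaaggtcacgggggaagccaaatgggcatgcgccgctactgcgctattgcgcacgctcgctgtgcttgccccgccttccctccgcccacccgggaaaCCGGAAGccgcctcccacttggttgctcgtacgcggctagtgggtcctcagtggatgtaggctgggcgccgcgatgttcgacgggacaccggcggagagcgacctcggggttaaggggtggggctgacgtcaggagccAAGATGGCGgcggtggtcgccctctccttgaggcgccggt
NDUFC1 (lower in the combination, chr4:139302502-139302801, minus strand): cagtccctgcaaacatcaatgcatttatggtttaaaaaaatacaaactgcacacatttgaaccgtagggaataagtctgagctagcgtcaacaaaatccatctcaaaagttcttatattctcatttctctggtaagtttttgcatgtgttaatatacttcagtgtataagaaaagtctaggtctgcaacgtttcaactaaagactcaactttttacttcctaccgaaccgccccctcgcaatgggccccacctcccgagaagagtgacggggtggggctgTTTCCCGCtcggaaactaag
NDUFA9 (lower in the combination, chr12:4648864-4649163, plus strand): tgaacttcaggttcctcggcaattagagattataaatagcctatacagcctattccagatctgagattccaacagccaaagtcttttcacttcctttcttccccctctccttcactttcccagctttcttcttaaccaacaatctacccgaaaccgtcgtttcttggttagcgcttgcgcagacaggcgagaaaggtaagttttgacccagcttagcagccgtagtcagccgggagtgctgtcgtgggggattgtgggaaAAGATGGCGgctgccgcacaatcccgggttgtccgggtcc
UQCR11 (higher in the combination, chr19:1605413-1605712, minus strand): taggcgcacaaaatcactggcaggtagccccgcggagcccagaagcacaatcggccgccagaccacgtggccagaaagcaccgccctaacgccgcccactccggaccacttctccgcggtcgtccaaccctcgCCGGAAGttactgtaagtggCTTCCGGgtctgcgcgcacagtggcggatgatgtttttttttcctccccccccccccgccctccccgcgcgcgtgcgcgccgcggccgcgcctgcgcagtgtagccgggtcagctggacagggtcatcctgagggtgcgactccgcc
NDUFS7 (higher in the combination, chr19:1383657-1383956, plus strand): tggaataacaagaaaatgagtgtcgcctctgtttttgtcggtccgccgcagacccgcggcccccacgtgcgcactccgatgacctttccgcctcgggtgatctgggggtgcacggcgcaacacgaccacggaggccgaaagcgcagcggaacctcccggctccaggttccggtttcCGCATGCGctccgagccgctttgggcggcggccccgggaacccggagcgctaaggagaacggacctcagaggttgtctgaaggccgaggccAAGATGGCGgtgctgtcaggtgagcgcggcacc
ATP5MC2 (higher in the combination, chr12:53676034-53676333, minus strand): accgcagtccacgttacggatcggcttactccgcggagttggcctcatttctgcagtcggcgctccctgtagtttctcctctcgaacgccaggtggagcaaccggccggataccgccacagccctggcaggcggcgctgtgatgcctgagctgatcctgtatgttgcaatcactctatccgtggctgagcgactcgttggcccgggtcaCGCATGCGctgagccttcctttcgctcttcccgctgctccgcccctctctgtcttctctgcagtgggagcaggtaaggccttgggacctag
SDHB holds the ETS and YY1 letters, NDUFC1 the first E2F letters, NDUFA9 the YY1 letters, UQCR11 the ETS letters in both orientations, NDUFS7 the NRF1 and YY1 letters, and ATP5MC2 the NRF1 letters. A match describes the letters only.

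Abemaciclib against DMSO shows how these genes respond to this drug alone. Whether the response comes through CDK4/6 was not tested. With abemaciclib, more subunits of complex I fell than rose, while in each of the other complexes the largest change was a rise. Complex I had 14 lower and 6 higher, complex II 0 and 1, complex III 1 and 2, complex IV 3 and 2, and complex V 2 and 3. Of the 80 tested members, 14 were higher and 20 lower than in DMSO (edgeR quasi-likelihood test, p adjusted over all genes by Benjamini-Hochberg, threshold 0.05). This is 42.5% of members, against 41.2% of all genes tested (20.5% higher and 20.7% lower), so the share called was close to the background. The median log2 fold change of members was -0.07, against 0.00 for all genes. No member changed 2-fold, which 11.4% of all genes did. Scaling to total counts alone, without trimmed mean (TMM) factors, gave 10 higher and 26 lower (12.5% and 32.5%, against 17.1% and 24% of all genes).

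NDUFA9, an accessory subunit at the junction of the matrix and membrane arms, stood at 70.4, 65.7 and 63.9 CPM in the DMSO libraries and at 38.5, 31.5 and 46.9 CPM in abemaciclib. It fell by 0.78 ± 0.134 (SE) on the log2 scale, with adjusted p = 4.13e-05. NDUFB11, a membrane arm subunit, went from 244 ± 16.7 to 163 ± 2.05 CPM (log2 -0.58, adjusted p = 8.37e-06). NDUFS6, a zinc-binding subunit near the NADH-oxidising module, went from 382 ± 18.3 to 264 ± 22.2 CPM (-0.53, adjusted p = 2.61e-06). NDUFC2, of the membrane arm, was at 120, 118 and 121 CPM in DMSO and at 86.2, 84.5 and 82.9 CPM in abemaciclib, a log2 change of -0.50 ± 0.083 (adjusted p = 2.08e-05). For all 4 genes every abemaciclib library was below every DMSO library.

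The iron-sulfur subunit NDUFS8 (-0.49, adjusted p = 4.21e-05), its neighbour in the ubiquinone-binding module NDUFS3 (-0.44, adjusted p = 0.000565), NDUFC1 (-0.43, adjusted p = 0.000479) and NDUFA12 (-0.42, adjusted p = 0.000445) also fell. NDUFB5 of the membrane arm moved the other way, from 102, 129 and 114 CPM in DMSO to 139, 147 and 158 CPM in abemaciclib, a rise of 0.36 ± 0.103 on the log2 scale (adjusted p = 0.00685). The most abundant complex I transcript, NDUFB9, was at 581 ± 8.51 CPM in DMSO and 531 ± 13.6 CPM in abemaciclib and did not pass the test (adjusted p = 0.139).

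**Figure D1:**
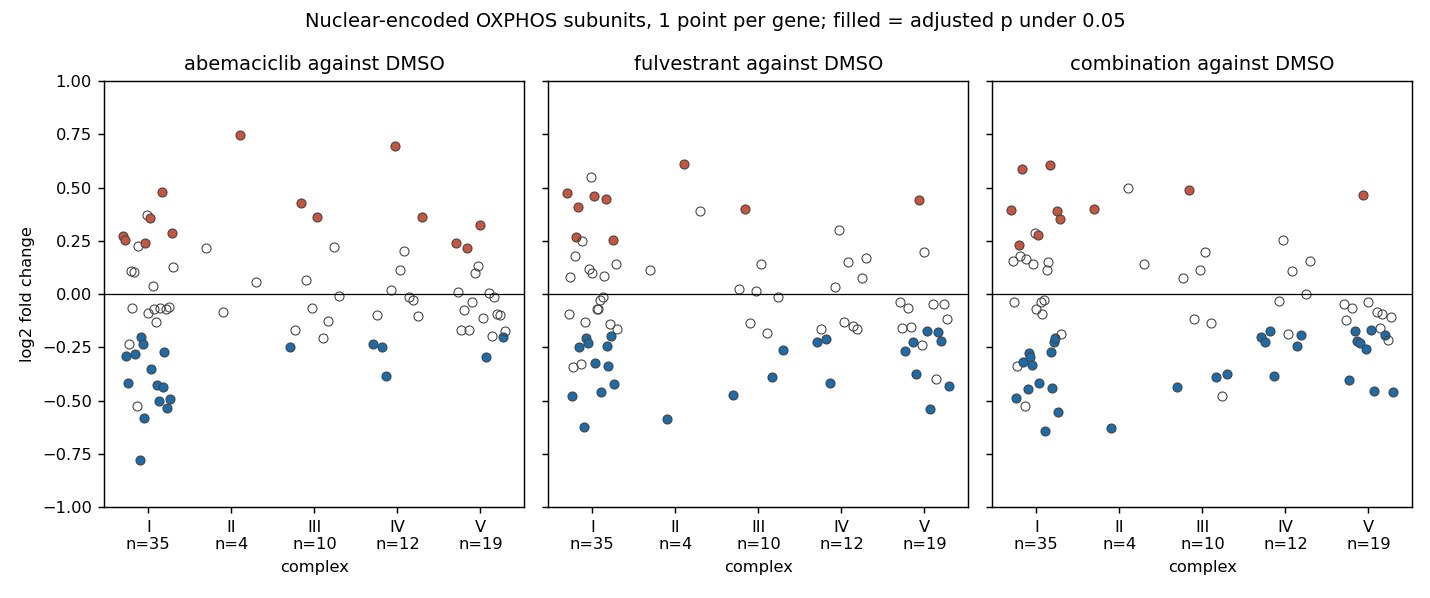
Log2 fold change of each tested member against DMSO (y axis), by complex (x axis), for abemaciclib, fulvestrant and the combination; filled points passed adjusted p under 0.05 and open points did not. All points lie between -0.78 and 0.75, and in fulvestrant and the combination 17 and 18 of the 19 complex V points lie below 0.

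SDHC was at 123, 191 and 176 CPM in DMSO and 269, 289 and 271 CPM in abemaciclib, a rise of 0.75 ± 0.217 on the log2 scale (adjusted p = 0.0223), which did not pass without DMSO replicate 1, without abemaciclib replicate 2 or without the low-count filter (values 0.59 to 0.87 over all alternatives). COX6C, a small nuclear subunit of complex IV, was at 591, 748 and 773 CPM in DMSO and 1109, 1198 and 1115 CPM in abemaciclib (0.70 ± 0.170, adjusted p = 0.00839). UQCR11, the smallest subunit of complex III, went from 340 ± 4.32 to 457 ± 14.1 CPM (0.43, adjusted p = 1.47e-05), and UQCRC2, a core subunit of the same complex, from 180 ± 2.59 to 231 ± 8.81 CPM (0.36, adjusted p = 0.00121). NDUFA4, first named for complex I and now placed in complex IV, went from 656 ± 57.3 to 842 ± 38.3 CPM (0.36, adjusted p = 0.00126). ATP5MD, a small membrane subunit of complex V now named ATP5MK, rose by 0.32 (adjusted p = 0.00359). For all of these every abemaciclib library was above every DMSO library.

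The second comparison, fulvestrant against DMSO, asked how these genes respond to the ER degrader alone. With fulvestrant, subunits of complex V and one iron-sulfur subunit of complex II fell, and complex I again held both risers and fallers. Of 80 tested members 9 were higher and 26 lower than in DMSO, or 43.8% against 51% of all genes (25.3% higher and 25.7% lower). The lower share of members, 32.5%, was above the background and the higher share, 11.2%, below it. The excess of lower members was not seen in some alternatives. The lower share was 20% against 22.5% of all genes without DMSO replicate 2, 22.5% against 23% without DMSO replicate 1, and 20.3% against 24% with only the groups compared. The median of members was -0.13 against 0.01 for all genes, and no member changed 2-fold (18.3% of all genes). Total-count scaling gave 6 higher and 34 lower (7.5% and 42.5%, against 22.5% and 28.3% of all genes). The count of lower members was 16 without DMSO replicate 2, and the count of higher members 15 without fulvestrant replicate 3 (18.8% against 25.4% of all genes). The comparisons with DMSO share the DMSO libraries, so their values stand side by side and are not independent.

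SDHB, which carries the iron-sulfur clusters of succinate dehydrogenase, was at 50.01, 59.1 and 51.5 CPM in DMSO and 39.9, 36.3 and 31.4 CPM in fulvestrant, a fall of 0.59 ± 0.127 on the log2 scale (adjusted p = 0.000352). In abemaciclib it was at 51.5, 52.6 and 48.1 CPM, overlapping DMSO (adjusted p = 0.622). No other complex II gene was called lower. SDHA, the flavoprotein, was at 43.4 ± 1.49 CPM in DMSO and 46.8 ± 5.65 CPM in fulvestrant (adjusted p = 0.460), and SDHD, the other membrane anchor, at 4.86 ± 0.680 and 6.59 ± 2.58 CPM (adjusted p = 0.281). SDHC was at 299, 287 and 170 CPM in fulvestrant, replicate 3 falling within the DMSO range, and passed narrowly (0.61, adjusted p = 0.0428). That call was lost in 13 of 23 alternatives, with adjusted p up to 0.138.

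Complex V had 8 of 19 tested members lower and 1 higher in fulvestrant, the inhibitor gene ATP5IF1 being counted among the lower. ATP5MF, subunit f of the membrane part, was at 285, 239 and 220 CPM in DMSO and 156, 160 and 194 CPM in fulvestrant (-0.54 ± 0.095, adjusted p = 2.91e-05); 37.2% of its last 500 bases are shared with exons of a readthrough gene and its neighbour. ATP5PO, the stalk subunit that confers oligomycin sensitivity and shares 45.2% of its last 500 bases with another gene of the same strand, was at 478, 531 and 530 CPM in DMSO and 379, 378 and 385 CPM in fulvestrant (-0.43 ± 0.073, adjusted p = 1.56e-05). ATP5IF1, the inhibitor of the ATP synthase, went from 274 ± 25.2 to 234 ± 18.2 CPM (-0.22, adjusted p = 0.0248), a call lost without DMSO replicate 1 or 2, without fulvestrant replicate 2, and with only the groups compared. ATP5F1B was at 775 ± 11.3 and 695 ± 16.4 CPM, with adjusted p = 0.0506.

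The c subunit, which forms the rotating ring of the ATP synthase, is encoded by 3 genes whose mature protein is the same. With fulvestrant they moved in different directions. ATP5MC1 went from 163, 166 and 168 CPM in DMSO to 130, 138 and 117 CPM (-0.38 ± 0.083, adjusted p = 0.000403). ATP5MC2 went from 224, 254 and 262 CPM to 362, 352 and 294 CPM (0.44 ± 0.089, adjusted p = 0.000152). ATP5MC3 was at 434, 544 and 562 CPM in DMSO and 463, 488 and 356 CPM in fulvestrant, with overlapping libraries (-0.24, adjusted p = 0.0605). The 3 genes together gave 926 ± 91.8 CPM in DMSO, 989 ± 37.2 CPM with abemaciclib, 899 ± 116 CPM with fulvestrant and 912 ± 45.0 CPM with both, and ATP5MC2 made up 26.6%, 26.7%, 37.3% and 37.4% of it. In abemaciclib none of the 3 passed the test (adjusted p 0.761, 0.398 and 0.325).

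**Figure D2:**
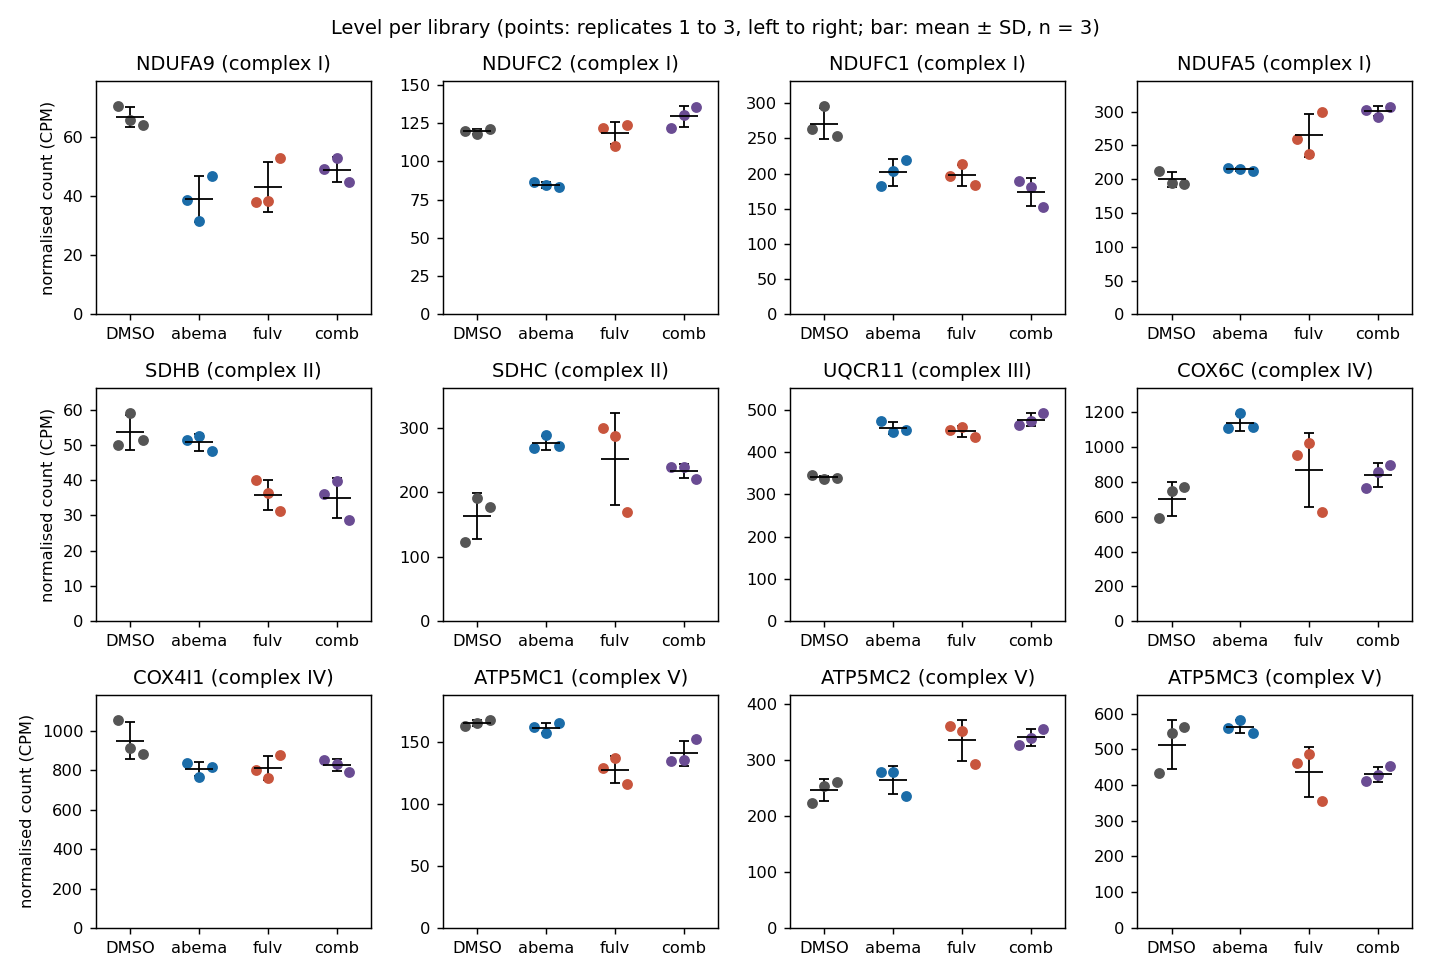
Normalised counts (CPM, y axis from 0) of 12 members in each library, by group (x axis); points are replicates 1 to 3 and bars the mean ± SD (n = 3). NDUFC2 is low in abemaciclib (82.9 to 86.2 CPM) and not in the other groups, SDHB is low in fulvestrant and the combination, and SDHC and COX6C show a low replicate 3 in fulvestrant.

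In complex I, 11 of 35 subunits were lower and 6 higher with fulvestrant. NDUFA9 was at 37.9, 38.2 and 52.7 CPM, below all DMSO libraries (-0.62 ± 0.134, adjusted p = 0.000353). NDUFA12 (-0.48, adjusted p = 6.43e-05), NDUFC1 (-0.46, adjusted p = 0.000157) and NDUFS8 (-0.42, adjusted p = 0.000182) fell as well. NDUFA1, a membrane arm subunit encoded on the X chromosome, went from 342 ± 11.9 to 475 ± 68.4 CPM (0.47, adjusted p = 3.60e-05), and NDUFA5, of the ubiquinone module, from 200 ± 10.9 to 265 ± 31.4 CPM (0.41, adjusted p = 0.000159). NDUFB5 rose too (0.46, adjusted p = 0.000543). NDUFA3 rose by 0.27 (adjusted p = 0.0163), which did not hold with total-count scaling, without DMSO replicate 2 or without fulvestrant replicate 1. NDUFC2 was at 119 ± 7.31 CPM, overlapping DMSO (log2 -0.01, adjusted p = 0.914).

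In complex III, CYC1, the haem-bearing cytochrome c1, went from 253 ± 13.7 to 182 ± 7.80 CPM (-0.48 ± 0.078, adjusted p = 1.13e-05), and UQCR11 rose from 340 ± 4.32 to 448 ± 12.7 CPM (0.40, adjusted p = 2.22e-05). UQCRB, the most abundant, was at 982 ± 31.0 CPM in DMSO, 1030 ± 6.71 CPM with abemaciclib, 894 ± 16.9 CPM with fulvestrant and 905 ± 2.17 CPM with both, and passed no test against DMSO. Complex IV had 3 of 12 subunits lower and none higher. COX4I1, the common form of a regulatory subunit, was at 951 ± 93.5 CPM in DMSO, 807 ± 38.0 in abemaciclib (-0.24, adjusted p = 0.0170), 814 ± 60.9 in fulvestrant (-0.22, adjusted p = 0.0187) and 827 ± 31.2 in the combination (-0.20, adjusted p = 0.0309). All 3 calls of COX4I1 were lost without DMSO replicate 1, in which it was highest at 1058 CPM. Counting that fit, they were lost in 2, 4 and 6 of 23 alternatives for abemaciclib, fulvestrant and the combination.

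Several other subunits of complex IV also have forms encoded by different genes. COX6A1, the form of most tissues, 35% of whose last 500 bases are shared with another gene, went from 149 ± 16.3 CPM in DMSO to 114 ± 6.51, 111 ± 21.8 and 114 ± 6.67 CPM in abemaciclib, fulvestrant and the combination (adjusted p = 0.00623, 0.00258 and 0.00397). COX6B1 stayed between 409 and 429 CPM in the group means, COX8A between 226 and 256 CPM, and COX7A2L between 70.8 and 82.0 CPM, none of them passing against DMSO. COX7A2 was at 169 ± 17.3 CPM in DMSO and 148 ± 9.12 in the combination (adjusted p = 0.118). COX7B was called lower in the combination, from 345 ± 16.9 to 292 ± 19.2 CPM (-0.24, adjusted p = 0.00967), a call lost without DMSO replicate 3 or combination replicate 1. The combination differed from abemaciclib for COX7B (-0.23, adjusted p = 0.0242) and did not pass against fulvestrant (-0.09, adjusted p = 0.715).

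With both drugs, 10 members were higher and 32 lower than in DMSO, or 52.5% against 55.2% of all genes (27.7% higher and 27.5% lower). Members' lower share was 40%, the higher share 12.5%, and the median -0.13 against 0.01 for all genes. No member changed 2-fold, against 20.3% of all genes. Without combination replicate 2 the count of lower members was 20, which is 25% against 24.5% of all genes. The higher share was then 13.8% against 24.9%, and the median -0.105 against 0.008. The lower share was 28.8% against 24.6% without DMSO replicate 2, and 28.8% against 25.3% without combination replicate 1. The size of the excess of lower members thus varied with the libraries used, and the cause was not tested. Complex V had 9 of 19 lower and 1 higher, complex IV 6 of 12 lower and 0 higher, complex III 3 of 10 lower and 1 higher, and complex I 13 of 35 lower and 7 higher.

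The members that fell most in the combination were NDUFC1 and SDHB. NDUFC1 was at 263, 296 and 253 CPM in DMSO and 189, 180 and 152 CPM in the combination (-0.64 ± 0.092, adjusted p = 1.26e-06), and SDHB was at 36.0, 39.8 and 28.6 CPM (-0.63 ± 0.125, adjusted p = 0.000116), neither overlapping DMSO. NDUFS8 (-0.55, adjusted p = 4.01e-06), NDUFA12 (-0.49, adjusted p = 4.02e-05), ATP5PO (-0.46, adjusted p = 5.27e-06), ATP5MF (-0.46, adjusted p = 0.000192), NDUFA9 (-0.44, adjusted p = 0.00551) and NDUFS4, an assembly-stabilising subunit of the NADH-oxidising module (-0.44, adjusted p = 0.000400), followed. ATP5MC1 (-0.23, adjusted p = 0.0186), ATP5MC3 (-0.26, adjusted p = 0.0420) and ATP5IF1 (-0.22, adjusted p = 0.0257) were lower too, with calls lost in 4, 10 and 5 of 23 alternatives.

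Among the risers, NDUFA5 was at 302, 293 and 307 CPM against 213, 194 and 193 CPM in DMSO (0.59 ± 0.082, adjusted p = 7.49e-07). UQCR11 (0.49, adjusted p = 1.04e-06), ATP5MC2 (0.47, adjusted p = 6.98e-05), NDUFA1 (0.40, adjusted p = 0.000266) and SDHA (0.40, adjusted p = 0.00563) rose, as did NDUFS7, which hands electrons to ubiquinone (0.39, adjusted p = 0.00133; 56.6% of its last 500 bases lie under a gene on the other strand), and NDUFV1, which binds NADH (0.35, adjusted p = 0.000976). SDHC, at 239, 239 and 220 CPM, was above every DMSO library and did not pass (0.50, adjusted p = 0.0820).

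Adding fulvestrant to abemaciclib changed 22 members, 9 higher and 13 lower, or 27.5% against 33.5% of all genes (15.9% higher and 17.7% lower). Complex I held 7 of the 9 risers and 1 of the 13 fallers. NDUFC2 returned from 86.2, 84.5 and 82.9 CPM in abemaciclib to 122, 130 and 136 CPM in the combination (0.61 ± 0.083, adjusted p = 1.21e-06). NDUFA5 (0.49, adjusted p = 3.02e-05), NDUFS7 (0.45, adjusted p = 0.000678), ATP5MC2 (0.37, adjusted p = 0.00192) and NDUFS6 (0.33, adjusted p = 0.00133) were also higher. SDHB (-0.55, adjusted p = 0.00119), ATP5MC3 (-0.39, adjusted p = 0.00620), UQCRQ of complex III (-0.37, adjusted p = 0.000274) and ATP5MD (-0.36, adjusted p = 0.00169) were lower. ATP5F1E, the epsilon subunit, went from 859 ± 5.89 to 657 ± 5.09 CPM (-0.39, adjusted p = 5.99e-05); its last 500 bases lie wholly under the TUBB1 gene on the other strand, and whether counting used the strand is not given in the sources used here. The median was -0.07 against 0.01 for all genes. Total-count scaling gave 11 higher and 8 lower (13.8% and 10%, against 19.1% and 15.2% of all genes), and without combination replicate 2 the lower count was 8 (10% against 14.9%).

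Adding abemaciclib to fulvestrant called 0 members (edgeR; also 0 with DESeq2), against 1.92% of all genes (0.297% higher and 1.63% lower). At an unadjusted p under 0.05 there were 6 members. Log2 differences of members ran from -0.465 to 0.286 with a median of -0.01. Without fulvestrant replicate 3, 1 of 80 members was called higher and 3 lower. In the same fit 1.53% of all genes were called higher and 3.34% lower, so the members' calls were close to the background.

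**Figure D3:**
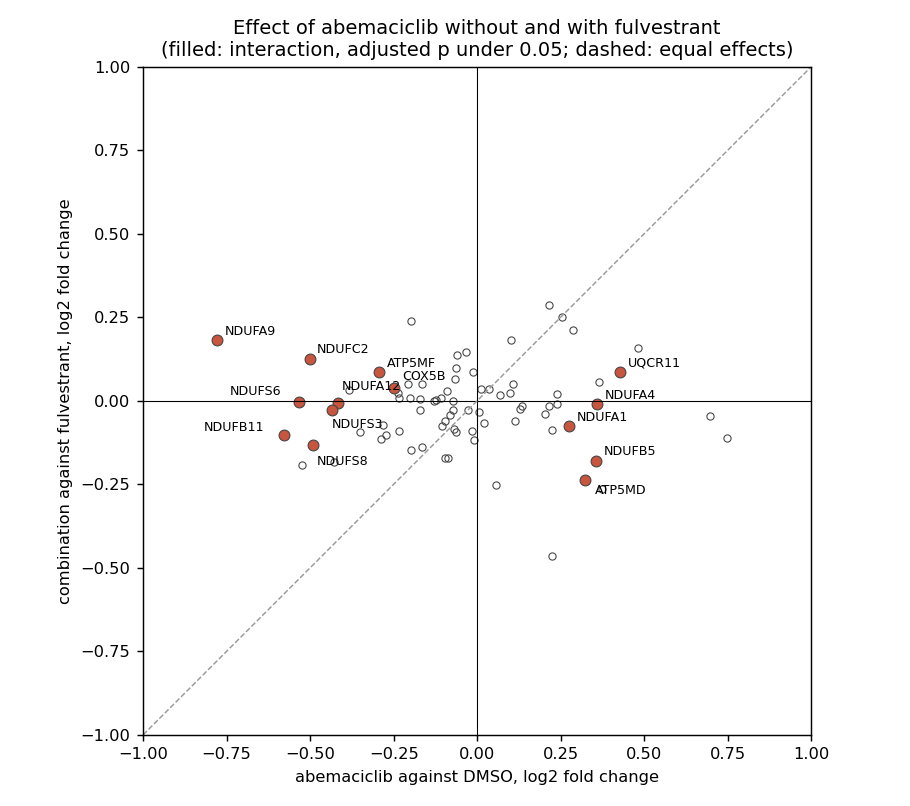
Log2 fold change of each tested member with abemaciclib in the absence of fulvestrant (x axis, against DMSO) and in its presence (y axis, combination against fulvestrant); filled and named points passed the interaction test and the dashed line marks equal effects. The spread of members was 0.285 (SD) along the x axis and 0.123 along the y axis.

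The interaction asked whether the effect of abemaciclib differs with and without fulvestrant, and uses 4 groups with no library shared between its 2 arms. Of the members 9 had a positive and 5 a negative interaction, or 17.5% against 21.1% of all genes (9.45% positive and 11.6% negative), with a median of 0.04 against -0.01. Called members with a positive value had fallen with abemaciclib alone, and those with a negative value had risen. The interaction contains that first effect, so this is not an independent observation. NDUFA9 changed by -0.78 without fulvestrant and 0.18 with it (difference 0.96 ± 0.192, adjusted p = 0.000678), and NDUFC2 by -0.50 and 0.13 (0.63 ± 0.116, adjusted p = 0.000272). NDUFS6 (0.53, adjusted p = 0.000779), NDUFB11 (0.48, adjusted p = 0.00784) and NDUFA12 (0.41, adjusted p = 0.0216) had the next values in this direction. In the other, ATP5MD changed by 0.32 and -0.24 (-0.56 ± 0.122, adjusted p = 0.00144), NDUFB5 by 0.36 and -0.18 (-0.54 ± 0.144, adjusted p = 0.00873), NDUFA4 by 0.36 and -0.01 (adjusted p = 0.0278), NDUFA1 by 0.28 and -0.08 (adjusted p = 0.0353) and UQCR11 by 0.43 and 0.09 (adjusted p = 0.0126). The call of NDUFA12 was lost in 6, of NDUFA4 in 8, of NDUFA1 in 11 and of UQCR11 in 1 of 22 alternatives.

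These counts were sensitive to single libraries and to scaling. Total-count scaling gave 15 positive and 2 negative (18.8% and 2.5%, against 13.8% and 8.68% of all genes), and DESeq2 5 and 6 (6.25% and 7.5%, against 7.63% and 10.2%). Positive calls numbered 5 without DMSO replicate 1 or 2, without any one abemaciclib replicate, or without combination replicate 1 or 2. That is 6.25% of members, against 7.03% to 7.95% of all genes in the same fits. Negative calls numbered 3 without DMSO replicate 1, abemaciclib replicate 2, fulvestrant replicate 1 or 2, or combination replicate 1 or 2, and 14 without fulvestrant replicate 3. These are 3.75% of members against 9.47% to 10.4% of all genes, and 17.5% against 14.7%. With DMSO replicate 1 and fulvestrant replicate 3, the libraries with most such deviations, both left out, members higher and lower numbered 15 and 24 with abemaciclib, 14 and 28 with fulvestrant, 15 and 33 with the combination, 11 and 24 for the combination against abemaciclib and 2 and 5 against fulvestrant, and 10 interactions were positive and 13 negative. In the same order these were 18.8% and 30% of members (all genes 20.8% and 20.7%), 17.5% and 35% (24% and 24.6%), and 18.8% and 41.2% (27.7% and 27.5%). The last 3 were 13.8% and 30% (19.1% and 20.6%), 2.5% and 6.25% (2.3% and 4.59%), and 12.5% and 16.2% (12% and 14.2%).

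Summed over the subunits of a complex, nuclear transcripts differed most between groups in complex II, the sum of which was 1.44 times that of DMSO with abemaciclib. Complex I summed to 6374 ± 65.6 CPM in DMSO, 6022 ± 87.2 CPM with abemaciclib, 6402 ± 186 CPM with fulvestrant and 6325 ± 141 CPM with both, and only the abemaciclib libraries lay apart from DMSO. Complex V summed to 6450.5 ± 202 CPM in DMSO, to 6450.2 ± 24.0 in abemaciclib, and to 5806 ± 287 and 5775 ± 112 CPM in fulvestrant and the combination, whose libraries all lay below DMSO. Complex IV was at 5033 ± 44.7 CPM in DMSO and at 5401 ± 39.9 CPM in abemaciclib, above every DMSO library. COX6C alone, from 704 ± 98.8 to 1141 ± 49.4 CPM, rose by more than that sum did, so the other complex IV members together fell. In fulvestrant the complex IV sum was 4933 ± 273 CPM, and in the combination 4844 ± 128 CPM, with every combination library below every DMSO library. Complex III was at 3295 ± 22.8, 3411 ± 88.8, 3044 ± 118 and 3044 ± 83.0 CPM in DMSO, abemaciclib, fulvestrant and the combination. Complex II, which SDHC dominates, was at 266 ± 39.1, 382 ± 18.04, 341 ± 79.4 and 330 ± 13 CPM in the same order. All tested and untested members together summed to 21418 ± 196 CPM in DMSO, 21667 ± 236 CPM with abemaciclib, 20526 ± 933 CPM with fulvestrant and 20317 ± 285 CPM with both.

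The subunits encoded by the mitochondrial genome moved differently. The 13 transcripts summed to 49190, 52865 and 60979 CPM in DMSO, to 105120, 118050 and 101150 CPM in abemaciclib, to 105070, 138420 and 84407 CPM in fulvestrant and to 101660, 79262 and 91997 CPM in the combination, with no drug-treated library inside the DMSO range. The ratio of this sum to the nuclear sum was 2.54 ± 0.269 in DMSO libraries, and 4.99 ± 0.377, 5.30 ± 1.13 and 4.48 ± 0.528 with abemaciclib, fulvestrant and both. Of the 13, 11 were higher with abemaciclib, 11 with fulvestrant and 9 with the combination, and 0 were lower in any of these. The higher ones were 84.6%, 84.6% and 69.2% of the 13, against 20.5%, 25.3% and 27.7% of all genes. The interaction was negative in 11 of 13 (84.6%, against 11.6% of all genes), with a median of -1.27. Rows of the mitochondrial genome took 12.3% ± 0.295 of all counts in DMSO and 17.9% ± 0.590, 18.5% ± 1.80 and 17.0% ± 1.93 in the drug groups, and their part in the values of the nuclear members was measured by leaving these rows out before scaling, which gave 14 and 20, 11 and 26, and 10 and 32 nuclear members higher and lower in the comparisons with DMSO. These were 17.7% and 25.3% (all genes 20.6% and 20.7%), 13.9% and 32.9% (25.6% and 25.5%), and 12.7% and 40.5% (27.7% and 27.7%).

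**Figure D4:**
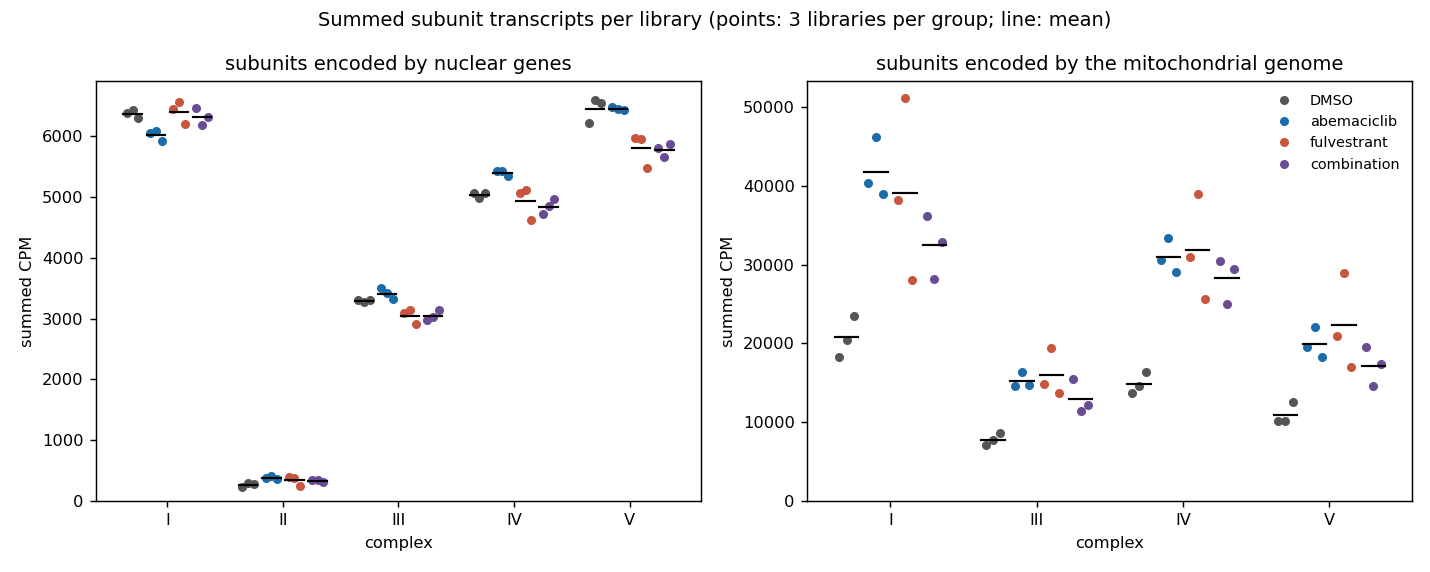
Summed CPM (y axes from 0, with different scales) of subunit transcripts per library by complex (x axis), for nuclear genes (left) and the mitochondrial genome (right); points are libraries and lines group means (n = 3). Nuclear sums of complex I stay between 5924 and 6561 CPM, while mitochondrial sums of every complex lie above DMSO in all drug-treated libraries.

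Genes that build or regulate the complexes were taken from lists made for this work. Of 58 assembly factors, 57 were tested; 4 were higher and 15 lower with abemaciclib, 4 and 22 with fulvestrant and 7 and 27 with the combination, with medians of -0.12, -0.24 and -0.28. The lower factors were 26.3%, 38.6% and 47.4% of those tested, against 20.7%, 25.7% and 27.5% of all genes, and the higher factors 7.02%, 7.02% and 12.3%, against 20.5%, 25.3% and 27.7%. By complex, the factors lower in the combination were 10 of 18 for complex I, 0 of 3 for complex II, 3 of 6 for complex III, 13 of 25 for complex IV and 1 of 5 for complex V, and the factors higher were 1, 1, 2, 2 and 1. NDUFAF3, an early factor of complex I, was at 57.1 CPM in DMSO and 33.5, 21.2 and 20.4 CPM in abemaciclib, fulvestrant and the combination (log2 -0.76, -1.41 and -1.47), and CMC2, a complex IV factor, at 60.5 CPM in DMSO and 34.9, 29.9 and 27.8 CPM. TTC19 of complex III rose from 60.7 CPM to 86.5, 98.3 and 113 CPM. Among the assembly factors, adding fulvestrant to abemaciclib gave 7 higher and 11 lower (12.3% and 19.3%, against 15.9% and 17.7% of all genes). Adding abemaciclib to fulvestrant gave 1 and 0 (1.75% and 0%, against 0.297% and 1.63%), and the interaction 4 positive and 0 negative (7.02% and 0%, against 9.45% and 11.6%).

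Of 73 mitochondrial ribosomal protein genes tested (78 listed), which make the machine that translates the mitochondrial subunits, 2 were higher and 30 lower with abemaciclib, 3 and 42 with fulvestrant and 3 and 44 with the combination, with medians of -0.22, -0.32 and -0.40. The lower genes were 41.1%, 57.5% and 60.3% of those tested, against 20.7%, 25.7% and 27.5% of all genes. MRPL11 went from 153 CPM in DMSO to 79.8, 66.9 and 63.7 CPM in abemaciclib, fulvestrant and the combination (log2 -0.95, -1.20 and -1.27), and MRPS21 from 301 CPM to 418, 371 and 388 CPM. Of 12 listed transcription regulators of OXPHOS genes 10 were tested, and 0 were higher and 4 lower in each comparison with DMSO. The lower ones were 40% of those tested, against 20.7%, 25.7% and 27.5% of all genes. The higher ones were 0%, against 20.5%, 25.3% and 27.7%. NRF1 went from 18.3 CPM in DMSO to 7.71 CPM in abemaciclib (-1.24 ± 0.223, adjusted p = 5.98e-05), 10.4 CPM in fulvestrant (-0.81, adjusted p = 0.00283) and 10.5 CPM in the combination (-0.82, adjusted p = 0.00172). TFAM, which packages and transcribes the mitochondrial genome, went from 110 CPM to 75.0, 74.7 and 78.3 CPM (adjusted p = 1.75e-05, 1.13e-05 and 4.31e-05), and GABPB1, a partner of the ETS factor, from 30.9 CPM to 24.0, 19.7 and 20.01 CPM (adjusted p = 0.0353, 0.000404 and 0.000389). GABPA itself was at low levels in every group (7.99, 8.25, 8.86 and 7.24 CPM, adjusted p = 0.910, 0.692 and 0.594). PPARGC1A had at most 0.434 CPM in a group mean and ESRRG 0.0937 CPM, and neither was tested.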

How the data were processed

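RNA was measured by 3′ RNA-seq (QuantSeq FWD) in 12 CAMA-1 libraries, 3 per group, grouped by the treatment label. The authors deposited unnormalised counts, 1 row for each symbol. They had trimmed reads with BBDuk, aligned them to hg38 with STAR and counted them on GENCODE genes with featureCounts 2.0.1, the version being from the submitters' processing notes. Of 60656 rows, 44 had no name and 0 reads and were left out. Totals were 3299119 to 5164667 counts; no molecular identifiers are named, so reads are not independent molecules.

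Genes passing filterByExpr (minimum count 10, total 15; 11803 genes) were fitted in R 4.3.3 with edgeR 4.0.16 (TMM, 4 group means over all libraries, robust quasi-likelihood, common biological coefficient of variation 0.0918), with Benjamini-Hochberg adjustment over all genes and a threshold of 0.05. The interaction is the change with abemaciclib in fulvestrant-treated cells minus that in its absence. CPM values use TMM-scaled totals. Alternatives were DESeq2 1.42.0, other scaling, other filters, only the groups compared, a replicate block, pseudogene reads added, and each library left out; leaving out both DMSO replicate 1 and fulvestrant replicate 3, and requiring a 1.2-fold change, were chosen after seeing the data. The fits were tested on simulated data.

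Same-numbered libraries did not deviate together (over 18 pairs, 2 correlations above 0.1, range -0.215 to 0.119), so numbers were not used as pairs. Over 36 pairs with different numbers, 4 correlations were above 0.1 (range -0.208 to 0.301). The highest, 0.301, was between DMSO replicate 1 and fulvestrant replicate 3, and its cause was not tested. No replicate pair agreed within sampling noise (chi-square per degree of freedom 1.85 to 14.6). Gene positions and 3′ overlaps are from GENCODE 44 on GRCh38, matched by symbol for 88 of 88 members.

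Members named are the up to 8 in each direction with the largest called change against DMSO, up to 5 in the other comparisons, the most abundant of each complex, the SDH genes, alternative forms, ATP5IF1, NDUFA4 and members that failed the filter; up to 3 per direction are named from each list (assembly factors taken as 1 list). Some genes that these rules select are not reported here. A few members outside the rule are named for limits of their counting, for counts of 5 or fewer or as neighbours in a flagged result, chosen after their values were seen.  Members and lists were chosen with earlier results of these data known.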

Additional observations from a re-analysis of the deposited data

Results flagged for a closer look

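The difference between the effect of abemaciclib without and with fulvestrant passed the interaction test (edgeR, adjusted p under 0.05) in 14 members. This was 17.5% of members, against 21.1% of all genes. DESeq2 called 5 members positive and 6 negative. The calls of NDUFS3, NDUFS8, ATP5MF and COX5B were not followed over the alternatives. The interaction contains the effect of abemaciclib alone, so the opposite sign of that effect is not an independent observation. The values given are the effect with fulvestrant minus that without it, on the log2 scale.

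In complex I, NDUFA9 had 0.96, NDUFC2 0.63, NDUFS6 0.53, NDUFB11 0.48, NDUFA12 0.41, NDUFS3 0.41 (adjusted p = 0.0302) and NDUFS8 0.36 (adjusted p = 0.0362). Abemaciclib alone had lowered each of these by 0.42 to 0.78, and with fulvestrant the changes ran from -0.13 to 0.18. ATP5MF of complex V had 0.38 (adjusted p = 0.0440) and COX5B of complex IV 0.29 (adjusted p = 0.0451); COX5B went from 376 ± 21.5 to 316 ± 11.2 CPM with abemaciclib, and was at 325 ± 12.0 CPM in fulvestrant and 334 ± 8.87 CPM in the combination.

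In the other direction UQCR11 had -0.34, NDUFA1 -0.35, NDUFA4 -0.37, NDUFB5 -0.54 and ATP5MD -0.56. Abemaciclib alone had raised these by 0.28 to 0.43, and with fulvestrant the changes ran from -0.24 to 0.09. Groups of 3 libraries were not tested for outlying samples.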

How the results depend on the processing

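Over the alternatives run, the median log2 change of members kept its sign in every comparison except the combination against fulvestrant (-0.0311 to 0.0358). With total counts only as scaling, medians were -0.131 (abemaciclib), -0.188 (fulvestrant), -0.017 (combination against abemaciclib), 0.0358 (combination against fulvestrant) and 0.152 (interaction); 8 members were lower in the combination than in abemaciclib, and 15 had a positive and 2 a negative interaction. That scaling moved the interaction median of all genes by 0.109 and that of members by 0.11, so relative to all genes it left the members' median in place; no other scaling moved an all-gene median by 0.1. DESeq2 gave 5 positive interactions. With only the groups compared, 16 members were lower with fulvestrant (20.3%, against 24% of all genes) and 24 lower in the combination than in abemaciclib (30.4% against 21.2%). With DMSO replicate 1 and fulvestrant replicate 3 both left out, 14 were higher with fulvestrant, 24 lower in the combination than in abemaciclib, 2 higher and 5 lower than in fulvestrant, and 13 had a negative interaction. Requiring a 1.2-fold change left 14 lower with fulvestrant, 19 lower with the combination, and 5 higher than in abemaciclib. The share of all genes past that change was not taken. The causes of these shifts were not tested.

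Leaving out each library in turn gave 10 to 14 members higher and 14 to 21 lower with abemaciclib, 7 to 15 and 16 to 26 with fulvestrant (median -0.138 to -0.0885), 9 to 14 and 20 to 34 with the combination, 6 to 11 and 8 to 19 for the combination against abemaciclib, 0 to 1 and 0 to 3 against fulvestrant, and 5 to 11 positive and 3 to 14 negative interactions. The shares of all genes moved as well: higher from 16.8% to 22.2% with abemaciclib, 22.2% to 25.4% with fulvestrant and 24.1% to 29% with the combination. Lower shares ran from 16.3% to 22.3%, 22.3% to 25.7% and 24.5% to 28.8%. Positive interactions ran from 7.03% to 12.8% and negative from 9.47% to 14.7%. For the combination against abemaciclib, higher shares of all genes ran from 12.1% to 17.8% and lower shares from 14.5% to 19.5%. For the combination against fulvestrant they ran from 0.0583% to 1.53% and from 1.16% to 3.34%.

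With the replicate number as a block, counts higher and lower were 14 and 19 (abemaciclib), 9 and 26 (fulvestrant), 10 and 31 (combination), 9 and 13 (combination against abemaciclib), 0 and 0 (combination against fulvestrant), and 7 and 5 (interaction). Against DMSO these were 17.5% and 23.8% of members (all genes 20.3% and 20.4%) with abemaciclib. They were 11.2% and 32.5% (25.2% and 25.5%) with fulvestrant, and 12.5% and 38.8% (27.5% and 27.3%) with the combination. The combination had 11.2% and 16.2% (15.4% and 17.5%) against abemaciclib and 0% and 0% (0.229% and 1.49%) against fulvestrant. The interaction had 8.75% and 6.25% (9.15% and 11.5%). The replicate numbers do not pair the libraries.

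Of 80 calls of named members, 65 held in every alternative, 15 were lost in some and 0 reversed. Members that were not called and lie near 0 changed sign: with upper-quartile factors COX7B (abemaciclib, 0.00666), COX8A (combination, 0.0268) and NDUFB9 (combination, 0.000852); with total counts SDHD (-0.00569), COX6B1 (-0.0427; fulvestrant -0.027) and ATP5F1B (-0.052), all with abemaciclib unless named; with no low-count filter COX7B (0.0042) and COX8A (0.0103); with both libraries left out SDHD (-0.0291), ATP5F1B (-0.00152), COX7A2 (fulvestrant, 0.0875), NDUFB9 (fulvestrant, 0.0136) and COX8A (combination, 0.000596). Over single libraries left out, such values ran from -0.0597 to 0.226 for SDHD, -0.0122 to 0.0574 for COX6B1, -0.0355 to 0.0331 for COX7B and -0.00628 to 0.0313 for ATP5F1B with abemaciclib, from -0.00137 to 0.0699 for COX6B1, -0.1996 to 0.0107 for COX7A2, -0.00913 to 0.131 for COX8A and -0.0384 to 0.00392 for NDUFB9 with fulvestrant, and from -0.0157 to 0.0405 for COX8A and -0.0591 to 0.0137 for NDUFB9 with the combination.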

Other observations

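Of 13 enzyme genes of the tricarboxylic acid cycle, which feeds electrons to the respiratory chain, all were tested; 3 were higher and 4 lower with abemaciclib, 2 and 4 with fulvestrant, and 2 and 5 with the combination. The lower genes were 30.8%, 30.8% and 38.5% of the list, against 20.7%, 25.7% and 27.5% of all genes. The subunits of succinyl-CoA ligase split: SUCLG1 fell from 158 CPM in DMSO to 113, 119 and 121 CPM in abemaciclib, fulvestrant and the combination (edgeR adjusted p = 0.000174, 0.000757 and 0.00135) and SUCLA2 from 24.2 to 18.7, 15.5 and 17.2 CPM (adjusted p = 0.0426, 0.000841 and 0.00527), while SUCLG2 rose from 24.4 to 37.0, 38.7 and 34.6 CPM (adjusted p = 0.00226, 0.000749 and 0.00664). OGDH rose with abemaciclib, from 45.2 to 60.4 CPM (adjusted p = 0.00410), and was at 44.9 and 45.3 CPM in the other drug groups.

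A last list held 4 genes linked to the chain that the symbol rule leaves out, 3 of them tested: 0 were higher, and 1 was lower with abemaciclib, 2 with fulvestrant and 2 with the combination. The lower genes were 33.3%, 66.7% and 66.7% of those tested, against 20.7%, 25.7% and 27.5% of all genes. NDUFAB1, the acyl carrier protein that is part of complex I, fell from 391 CPM in DMSO to 321, 269 and 291 CPM (adjusted p = 0.00205, 4.36e-07 and 1.13e-05). CYCS, cytochrome c, fell from 177 CPM to 132 CPM in fulvestrant and 128 CPM in the combination (adjusted p = 0.000184 and 5.17e-05), and was at 159 CPM in abemaciclib (adjusted p = 0.137). PPA2, mitochondrial pyrophosphatase, was at 103, 101, 112 and 119 CPM and passed none of these tests, and NDUFA4L2 had 0 counts.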
